A study of Mus musculus with 4 samples.

Results

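Insulin acts on fat cells through a receptor tyrosine kinase, and the transcripts of that pathway and of the glucose transporter it controls, GLUT4, were followed here in differentiated 3T3-F442A cells, a cell line of mouse preadipocytes that can be turned into fat cells. The set was defined by gene name: Insr, Irs1, Irs2, Akt1, Akt2, Slc2a4, Pik3r1, Foxo1 and Pde3b, with every probe set whose platform annotation names that gene and no other. Of the 9 genes, 8 had such a probe set, which gave 17 of the 22626 probe sets on the arrays. Pde3b, the phosphodiesterase through which insulin restrains lipolysis, was not analysed here.

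The series holds 4 Affymetrix mouse arrays. There were 2 of cells stably carrying the short hairpin shGFP, the control, and 2 of cells stably carrying shTRPV4, whose target Trpv4 encodes a calcium-permeable cation channel. Per the labels, the hairpins were delivered to preadipocytes by retrovirus, with an overnight infection, and the cells were selected for 2 days in 2 ug/ml puromycin. At confluence, cells of both groups were then kept in 850 nM insulin for 8 days, the first 2 of them also with rosiglitazone, which activates PPAR gamma. All 4 arrays therefore come from cells grown in insulin, and no array of cells without insulin was analysed. The labels do not say whether the 2 replicates of a group were separate infections or cultures, so p-values measure no more than the spread between arrays, which could be technical.

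In the textbook pathway, insulin binding makes its receptor phosphorylate the docking proteins IRS1 and IRS2. These recruit PI3 kinase through its regulatory subunit p85 alpha, the product of Pik3r1, and the lipid it makes leads to activation of the kinases AKT1 and AKT2. In fat cells, AKT2 in particular causes vesicles with GLUT4, the product of Slc2a4, to fuse with the plasma membrane, so that glucose uptake rises, and AKT also keeps the transcription factor FOXO1 out of the nucleus. Most of this control works on proteins and their location, which transcript arrays do not measure.

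The transcript with the largest difference in the set was Slc2a4, which rose 2.24-fold and 2.61-fold on its 2 probe sets. Irs1, a docking protein of the receptor, rose 1.54-fold, and Foxo1 rose on the dimmest of its 4 probe sets. The remaining probe sets, which cover Insr, Irs2, Akt1, Akt2, Pik3r1 and the brighter Foxo1 ones, did not pass the test. Each difference is shTRPV4 minus shGFP in quantile-normalized log2(intensity + 16), fitted with limma over all probe sets. "Rose" and "fell" are used where the Benjamini-Hochberg adjusted p over all 22626 probe sets was under 0.05.

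Promoter sequences are shown for the paralogs Irs1 and Irs2, whose differences had opposite signs, and for Foxo1. RefSeq promoter entries of GRCm38.p6 were found for Irs1, Irs2, Akt1, Akt2, Pik3r1 and Foxo1, that is 6 of the 9 genes, and not for Slc2a4, Insr and Pde3b. Each sequence is the 250 bases before the annotated start, 5′ to 3′ on the gene's strand. Capitals mark matches on either strand to 5 motifs: the FoxO core GTAAACA, the insulin response sequence CAAAACA, the E-box CACGTG, the CCAAT box CCAAT and the GC box GGGCGG. A search for the TATA box TATAAA gave no match in these 3 windows.
Irs1 promoter, GRCm38.p6 chr1:82291440-82291689, minus strand: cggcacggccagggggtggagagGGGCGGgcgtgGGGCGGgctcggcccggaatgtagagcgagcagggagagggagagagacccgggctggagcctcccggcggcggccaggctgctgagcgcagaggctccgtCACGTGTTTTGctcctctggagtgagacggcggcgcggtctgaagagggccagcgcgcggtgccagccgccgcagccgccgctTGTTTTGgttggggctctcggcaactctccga
Irs2 promoter, GRCm38.p6 chr8:11008930-11009179, minus strand: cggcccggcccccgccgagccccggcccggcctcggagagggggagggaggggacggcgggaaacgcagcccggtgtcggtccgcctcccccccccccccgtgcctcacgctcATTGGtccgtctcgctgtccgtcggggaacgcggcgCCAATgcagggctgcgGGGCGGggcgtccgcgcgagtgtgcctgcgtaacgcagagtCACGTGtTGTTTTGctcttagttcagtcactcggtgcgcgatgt
Foxo1 promoter, GRCm38.p6 chr3:52268087-52268336, plus strand: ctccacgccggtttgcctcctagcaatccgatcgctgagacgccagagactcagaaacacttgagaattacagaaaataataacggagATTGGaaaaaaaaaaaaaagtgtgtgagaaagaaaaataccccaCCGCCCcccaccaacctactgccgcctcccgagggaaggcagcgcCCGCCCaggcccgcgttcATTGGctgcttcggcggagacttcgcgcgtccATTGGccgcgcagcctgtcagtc

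The Irs1 and Irs2 windows had an E-box beside an insulin response sequence. In Irs1 the E-box begins 115 bases before the start and shares its last bases with an insulin response sequence that begins at 111, and a second one begins at 32. In Irs2 the E-box begins 44 bases before the start and the insulin response sequence at 37. Of all 32851 windows of this length in the table, 5.56% held the insulin response sequence, 6.02% the E-box and 0.295% both. The last share counts both motifs anywhere in a window, and how often they lie side by side was not counted. The Foxo1 window had 3 CCAAT boxes and 2 GC boxes, letters found in 33.8% and 32.7% of all windows. None of the 3 windows had the FoxO core, which 3.17% of all windows held, and 1 of the Akt1 windows did. These matches describe the letters only.

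The hairpin's own target could not serve as a check on the labels. Trpv4 read 43.7 and 93.8 on the arrays labelled shGFP and 80.1 and 79.5 on those labelled shTRPV4 (log2 difference 0.32, 95% interval −0.55 to 1.19, limma adjusted p = 0.55), and the groups are therefore called by their labels. Array medians of the deposited intensities ran from 129.4 to 144.0. Replicate arrays differed by a median of 0.12 and 0.10 in absolute log2 value, and arrays of different groups by 0.20 to 0.22. Of the adipocyte markers, Fabp4 read 18099 to 19625 and Adipoq 11785 to 14169 on the 4 arrays, and Lep 3.93 to 68.3. Muscle also uses GLUT4. Of its 6 markers, the regulators Myod1 and Myog read 18.9 to 37.0 and 3.98 to 12.8, Ckm and Myh3 at most 19.4, and Acta1 and Des 112 to 143 and 324 to 496.

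In the control arrays, the brighter Slc2a4 probe set, 1415958_at, read 493 and 373, and in the arrays labelled shTRPV4 it read 1001 and 908. The second, 1415959_at, read 119.9 and 152 against 332 and 384. On both probe sets each array labelled shTRPV4 was above each control array, with a gap wider than the distance between replicates. The log2 difference was 1.16 for 1415958_at (SE 0.19, 95% interval 0.61 to 1.72, a 2.24-fold rise, limma adjusted p = 0.049). It was 1.38 for 1415959_at (SE 0.12, 95% interval 1.03 to 1.73, 2.61-fold, limma adjusted p = 0.021). Only 87 and 56 of the 22626 probe sets had a larger positive difference than these. The control replicates were in opposite order on the 2 probe sets, replicate 1 being the higher on 1415958_at and the lower on 1415959_at. With both averaged before the fit, the difference was 1.27 (SE 0.07, limma adjusted p = 0.0100). Leaving out 1 array moved the difference of 1415958_at between 0.93 (without replicate 2 of shGFP) and 1.41 (without replicate 1 of shGFP), and that of 1415959_at between 1.26 and 1.51. Those fits keep 1 residual degree of freedom, and no probe set of the table passed in them, whatever its difference. With an offset of 1 neither Slc2a4 probe set passed (limma adjusted p = 0.088 and 0.052).

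**Figure D1:**
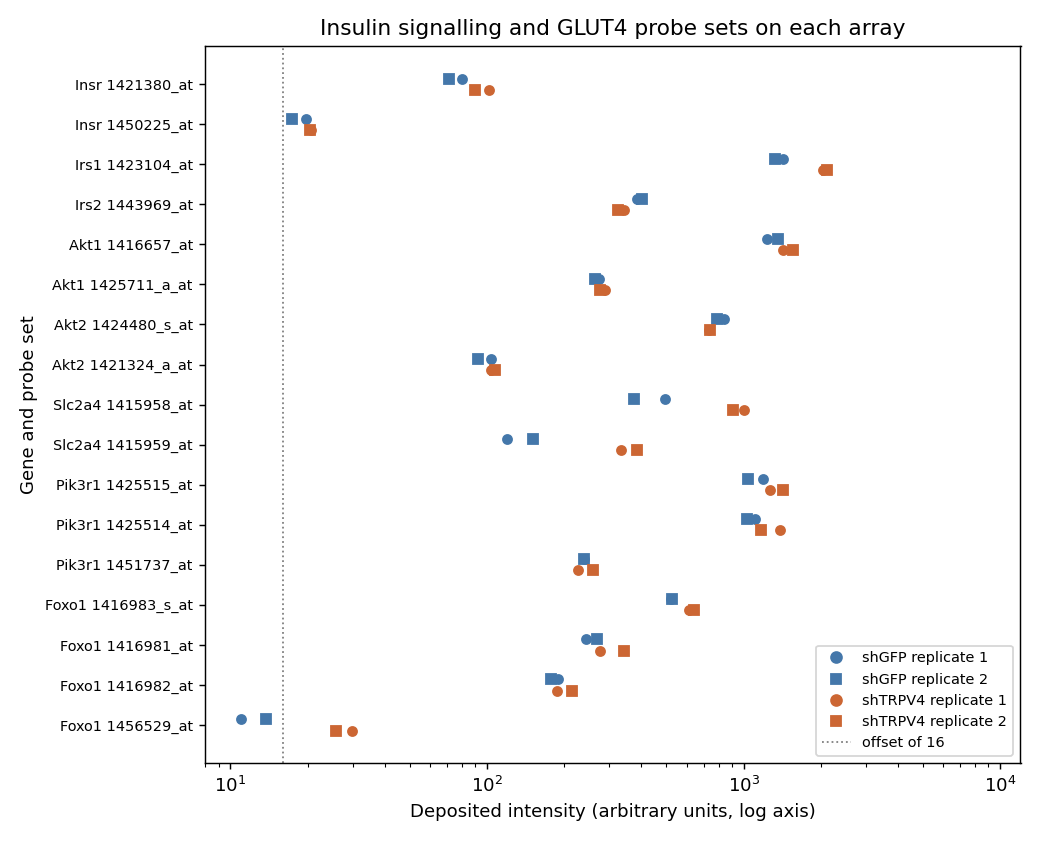
Deposited intensity (log axis, arbitrary units) of each of the 17 probe sets on each of the 4 arrays, with shGFP in blue, shTRPV4 in orange and the replicates as circles and squares; the dotted line is the offset of 16. Both Slc2a4 probe sets and Irs1 are higher on the shTRPV4 arrays, and Foxo1 1456529_at lies below the offset on both shGFP arrays.

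Markers of cell types moved in the same arrays. Of 9 adipocyte markers, 3 rose and 1 fell (median 0.10), where 5.33% and 6% of all genes rose and fell. Those that rose were Retn (1.90), Cebpa (0.88) and Pparg (0.45; not called without normalization), and the one that fell was Lep (−1.77, to readings below the offset). Fabp4, Adipoq, Lpl, Cidec and Cd36 did not pass (−0.14 to 0.16). The summed intensity of the 9 was 56843 to 57877 on the control arrays and 64681 to 67757 on the arrays labelled shTRPV4. Retn, which is part of that sum, read 1496 and 1314 against 5273 and 5225. This sum and those of the other marker lists are of deposited intensities, without normalization. Among markers of preadipocytes and fibroblasts, 4 of 9 fell and 0 rose (Pdgfra −1.25, Dlk1 −1.24, Cd34 −1.07, Thy1 −0.56). Pdgfrb, Col1a1, Col1a2, Col3a1 and Vim did not pass (−0.38 to 0.11). The sum of the 9 was 65135 to 67064 against 60036 to 61093. A larger share of mature fat cells and more Slc2a4 or Irs1 RNA per cell cannot be told apart in such bulk RNA, and the part of these markers in the results was not tested.

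Slc2a4 belongs to a family of glucose transporters. The one that carries basal uptake in many cells is GLUT1, the product of Slc2a1. Slc2a1 was compared with Slc2a4 although it is outside the naming rule. It read 6005 and 6743 on the control arrays and 6988 and 6920 on the arrays labelled shTRPV4, and its log2 difference of 0.08 did not pass (95% interval −0.16 to 0.31, limma adjusted p = 0.59). The difference of Slc2a4 exceeded that of Slc2a1 by 1.09 on the log2 scale, against a distance between replicates of 0.62 among the control arrays and 0.14 among the others in the same measure (exact permutation test over the 4 arrays, two-sided p = 0.333, the smallest that 2 against 2 arrays allow). Of 6 further transporters of the family, 1 fell and 0 rose, where 6% and 5.33% of all genes fell and rose. Their median log2 difference was 0.13. Slc2a2, Slc2a3, Slc2a5 and Slc2a9 were dim, with readings of at most 53.0, which limits what can be said of them. The one that fell was Slc2a10, which encodes GLUT10 (134.7 and 167 against 55.9 and 65.8; −1.04, SE 0.13, limma adjusted p = 0.031), and its other probe set fell as well (−1.30).

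The receptor gene Insr was read at low intensity. Its probe set 1421380_at read 80.0 and 70.9 in the control arrays and 101.6 and 90.1 in the arrays labelled shTRPV4. The groups did not overlap, as for 26.2% of all probe sets in that direction. The log2 difference was 0.37 (SE 0.11, 95% interval 0.05 to 0.69) and did not pass (limma adjusted p = 0.12). The second probe set, 1450225_at, read 19.8 and 17.3 against 20.6 and 20.4, close to the offset of 16 (0.10, 95% interval −0.11 to 0.30, limma adjusted p = 0.45). The first interval includes a rise of up to 0.69, and the second one of at most 0.30.

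The genes of the docking proteins had differences of opposite sign. Irs1, with the lone probe set 1423104_at, read 1420.3 and 1330.2 in the control arrays and 2039 and 2113 in the arrays labelled shTRPV4. The groups were far apart compared with their replicates, and Irs1 rose by 0.62 (SE 0.08, 95% interval 0.39 to 0.85, a 1.54-fold rise, limma adjusted p = 0.034). With any 1 array left out the difference ran from 0.54 to 0.69, in fits where no probe set of the table kept a call. The Irs1 call was also lost with an offset of 1 (limma adjusted p = 0.065). Irs2, with the lone probe set 1443969_at, read 384 and 402 in the control arrays and 343 and 325 in the arrays labelled shTRPV4. These groups did not overlap either, in the other direction, as for 30.3% of all probe sets. The log2 difference of −0.16 did not pass (SE 0.07, 95% interval −0.37 to 0.04, limma adjusted p = 0.24). The difference of Irs1 exceeded that of Irs2 by 0.79 on the log2 scale, against a distance between replicates of 0.14 and 0.12 in the same measure (exact permutation test, two-sided p = 0.333, again the smallest possible).

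Pik3r1, the regulatory subunit of PI3 kinase, had positive differences on its 3 probe sets, none of which passed. The probe set 1425515_at read 1186 and 1045 against 1263 and 1427 (0.30, 95% interval −0.02 to 0.61, limma adjusted p = 0.18). For 1425514_at the readings were 1113 and 1031 against 1384 and 1167 (0.27, −0.12 to 0.66). The third, 1451737_at, read 239 and 239 against 226 and 259.9, so that its groups overlapped (0.09, −0.15 to 0.33).

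The kinase genes Akt1 and Akt2 differed little. Akt1 probe set 1416657_at read 1229 and 1363 in the control arrays and 1427 and 1559.8 in those labelled shTRPV4 (0.24, SE 0.08, 95% interval 0.02 to 0.45, limma adjusted p = 0.14). The other, 1425711_a_at, read 273 and 263 against 288 and 277 (0.14, −0.10 to 0.37). Akt2, the isoform tied to GLUT4 movement, had probe sets of opposite sign. Its brighter one, 1424480_s_at, which is of a kind that can read several related transcripts, read 838 and 789 against 730.1 and 739 (−0.11, −0.35 to 0.13, limma adjusted p = 0.47). Its dimmer one, 1421324_a_at, read 104 and 92.4 against 104 and 107 (0.18, −0.09 to 0.44, limma adjusted p = 0.30). With the pair averaged the Akt2 difference was 0.03 (limma adjusted p = 0.83). A rise of the Akt2 transcript by more than 0.44, or a fall by more than the 0.35 of the first interval, lies outside both intervals.

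Foxo1 had positive differences on its 4 probe sets, of which 1 passed. That one, 1456529_at, was the dimmest, at 11.0 and 13.7 on the control arrays, below the offset of 16, and at 29.8 and 25.9 on the arrays labelled shTRPV4. Its log2 difference was 0.65 (SE 0.09, 95% interval 0.40 to 0.89, limma adjusted p = 0.035), but the size is set by the offset: it was 1.15 with an offset of 1 (limma adjusted p = 0.060) and 0.27 with 64. With any 1 array left out the difference of 1456529_at ran from 0.58 to 0.71, in fits where no probe set of the table kept a call. The brightest, 1416983_s_at, also of a kind that can read several related transcripts, read 523 and 527 against 616 and 638. These groups did not overlap, as for 26.2% of all probe sets in that direction. The difference of 1416983_s_at was 0.30 (SE 0.07, 95% interval 0.11 to 0.48, limma adjusted p = 0.075). The others read 242 and 269.7 against 276 and 341 (1416981_at, 0.32, limma adjusted p = 0.17), and 189 and 178 against 187 and 215 (1416982_at, 0.19, limma adjusted p = 0.29). With the 4 probe sets averaged, Foxo1 passed in the fit by gene (0.36, SE 0.06, limma adjusted p = 0.043). That average includes 1456529_at, whose size the offset sets, and none of the other probe sets passed on its own.

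**Figure D2:**
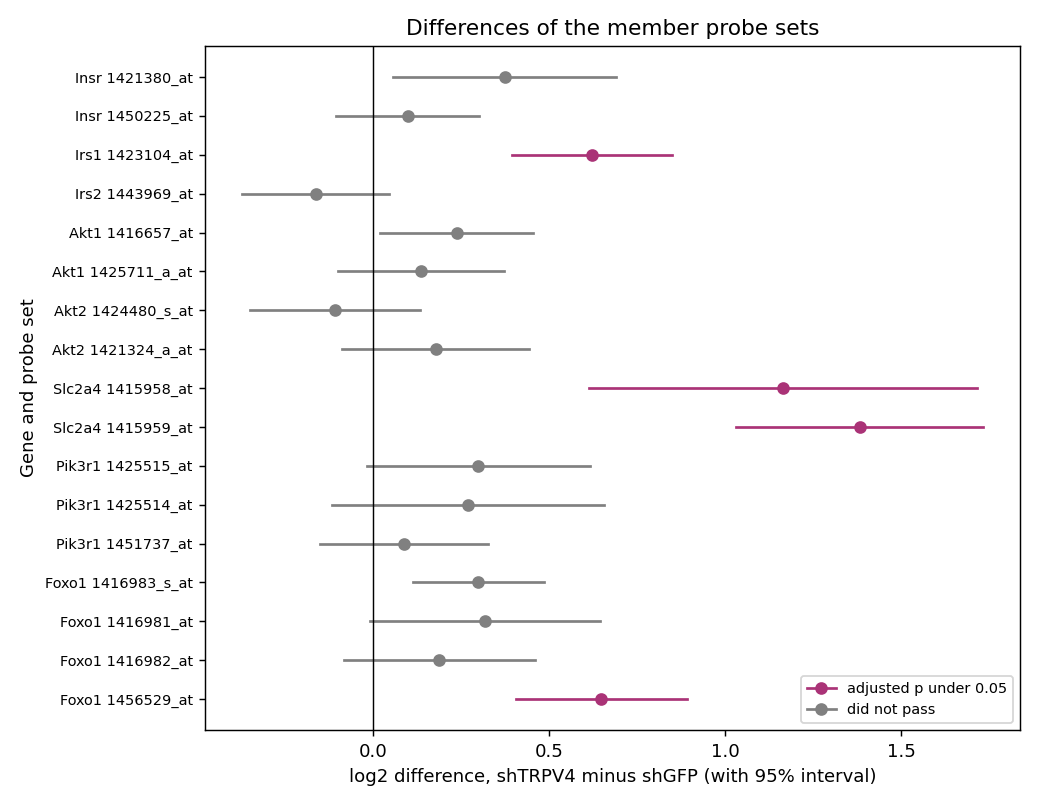
Log2 difference (shTRPV4 minus shGFP, points) with its 95% interval (lines) for each of the 17 probe sets, in purple where the limma adjusted p was under 0.05. The 4 probe sets that passed are those of Slc2a4, Irs1 and Foxo1 1456529_at, all above 0, and Irs2 and Akt2 1424480_s_at have the only negative values.

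Counted over the set, 4 of 17 probe sets rose and 0 fell, from 3 of the 8 genes. Over all probe sets, 4.54% rose and 5.36% fell, 9.9% in all. That split depends on scaling: 45.9% of all calls were rises after quantile normalization, 34.1% with the values as deposited and 59.3% with median centring, while the same count of 4 of 17 was reached under each of these. Positive differences were found for 15 of the 17, with a median of 0.27, against 52.5% of all probe sets with a median of 0.01. In the deposited intensities, 12 of the 17 were higher on both arrays labelled shTRPV4 than on both control arrays and 2 were lower, against 26.2% and 30.3% of all probe sets. Several probe sets read the same gene, so these counts are not of independent measurements. With any 1 array left out, limma called 0 of the 17, and 0 of all probe sets, with 4 to 8 of the 17 at an unadjusted p under 0.05.

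**Figure D3:**
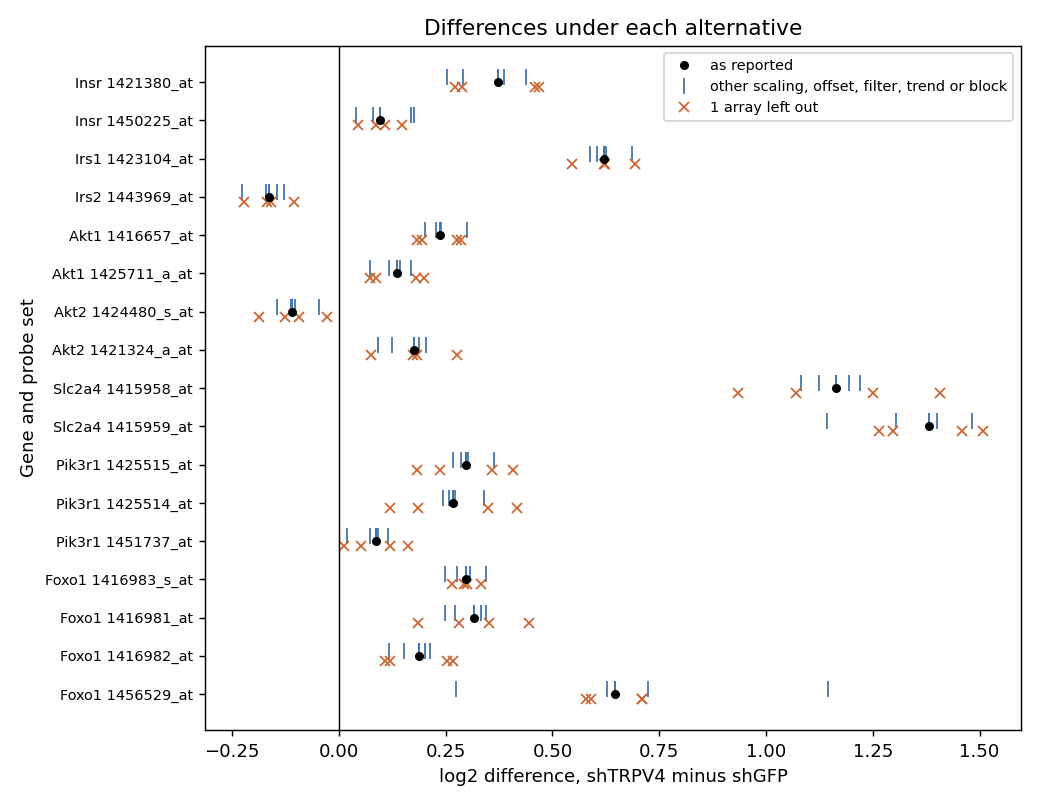
Log2 difference (shTRPV4 minus shGFP) of the 17 probe sets as reported (black), under another scaling, offset, filter, trend or block (blue bars) and with 1 array left out (orange crosses). No probe set crosses 0 under these alternatives, and Foxo1 1456529_at has the widest range, from 0.27 to 1.15.

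Other genes of the pathway were read in 9 lists with 107 genes measured of 130 listed, each gene by its brightest probe set. Of the 107, 6 rose and 9 fell, against 5.33% and 6% of all 12393 genes, and their median log2 difference was 0.15, against 0.02 over all genes. Like every call in the table, these were lost with any 1 array left out, and 3 of the 15 (Socs3, Abhd5 and Pde4b) held with an offset of 1. The share of these genes past the threshold, 14.0%, is close to the 11.3% of all genes. Of the 92 that did not pass, 5 had another probe set that passed in the same direction, and 4 passed in the fit of 1 averaged value per gene. Of these 4, Phlpp1 and Rhoq have no other probe set. Their differences are the same in both fits, so averaging did not change them.

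Among proteins that dock on the receptor or its substrates, 1 of 12 fell and 0 rose (median −0.10). The one that fell was Dok1, an adaptor that dampens tyrosine kinase signals (455 and 511 against 310.0 and 332; −0.51, SE 0.07, limma adjusted p = 0.037; not called without normalization). Of 10 genes of PI3 kinase and the kinases around AKT, 1 rose and 0 fell (median 0.19). It was Pik3r2, which encodes the p85 beta subunit, the alternative to the Pik3r1 product (564 and 609.7 against 906 and 906; 0.65, SE 0.065, limma adjusted p = 0.024). Pdpk1, of the same list and chosen after its values were seen, did not pass on its brightest probe set (0.24, limma adjusted p = 0.098). Its other probe set rose, and so did the average of both (0.33, limma adjusted p = 0.045). Of all genes, 5.33% rose and 6% fell on their brightest probe set.

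Of 12 genes that limit the signal, 1 fell and 0 rose (median 0.16), where 6% and 5.33% of all genes fell and rose. Socs3, a cytokine-induced inhibitor that binds the insulin receptor and targets IRS proteins, read 2390.4 and 2277 on the control arrays and 813 and 731 on the arrays labelled shTRPV4. It fell by 1.54 on the log2 scale (SE 0.11, limma adjusted p = 0.017), and its other probe sets fell too (−1.43 and −1.55). The difference of Ptpn1, the phosphatase that acts on the receptor itself, chosen after its values were seen, was 0.13 (95% interval −0.06 to 0.32, limma adjusted p = 0.30). That of Phlpp1, also chosen after its values were seen, was 0.64 (0.33 to 0.95) and did not pass (limma adjusted p = 0.0505). In the fit by gene Phlpp1 passed (limma adjusted p = 0.040). Over the 12 genes, 8 differences were positive and 4 negative.

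Of 8 targets of AKT and mTORC1, 1 rose and 1 fell (median 0.16), where 5.33% and 6% of all genes rose and fell. Of the 8 differences, 6 were positive. Gys1, the glycogen synthase of muscle and fat, rose (1217 and 1351 against 1755 and 1981; 0.57, SE 0.08, limma adjusted p = 0.038; not called without normalization), and its other probe set did not pass (0.37). Rps6, a ribosomal protein phosphorylated downstream of mTORC1, fell by 0.49 (SE 0.06, limma adjusted p = 0.034), but its other probe set had the opposite sign (0.22) and the call was lost when they were averaged.

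Of 16 other FoxO factors and textbook FoxO targets, 2 rose and 1 fell (median 0.22), where 5.33% and 6% of all genes rose and fell. Klf15, a transcription factor known to raise Slc2a4 in fat cells, read 370.4 and 329 on the control arrays and 995 and 898 on the arrays labelled shTRPV4 (1.44, SE 0.13, limma adjusted p = 0.020). Bcl6, a transcriptional repressor, rose on both of its probe sets (337 and 432 against 812 and 857; 1.14, SE 0.12, limma adjusted p = 0.024). Pck1, the phosphoenolpyruvate carboxykinase that insulin is known to lower, fell from 211 and 148 to 30.3 and 20.3 (−2.18, SE 0.24, limma adjusted p = 0.026), and its other probe set did not pass (−0.17). Ppargc1a, a coactivator of mitochondrial genes, chosen after its values were seen, did not pass on its brightest probe set (0.27, limma adjusted p = 0.48), but 3 of the other 4 rose (0.81 to 1.24), and so did the average of all 5 (0.76, limma adjusted p = 0.015), which makes 4 genes of this list past the threshold with probe sets averaged. The targets that passed thus lay on both sides of 0.

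The machinery that carries GLUT4 vesicles to the surface had 1 of 19 genes up and 2 down (median 0.08), where 5.33% and 6% of all genes rose and fell. Tbc1d4 and Lnpep, also listed for this machinery, were not measured. The SNARE protein gene Stx4a, whose product receives GLUT4 vesicles at the plasma membrane, fell (1478 and 1513 against 1033 and 1065; −0.48, SE 0.06, limma adjusted p = 0.033). Its binding partner Stxbp3, also known as Munc18c, fell too (1214 and 1216 against 829 and 815; −0.52, SE 0.07, limma adjusted p = 0.034), on 1 of 2 probe sets (the other −0.28) and not when they were averaged. Vamp3, a vesicle SNARE, rose on 1 of its 5 probe sets (0.37, SE 0.06, limma adjusted p = 0.048), which did not hold without normalization or with probe sets averaged.

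On the arm that PDE3B opposes, cAMP and lipolysis, 2 of 15 genes fell and 0 rose (median 0.18). Pde4b, another phosphodiesterase that degrades cAMP, fell (535 and 556 against 151 and 156; −1.67, SE 0.06, limma adjusted p = 0.015), on both of its probe sets. Abhd5, the coactivator of adipose triglyceride lipase, fell (1569 and 1542 against 762 and 802; −0.94, SE 0.07, limma adjusted p = 0.017), also on both. Of 8 genes of glucose use and lipid synthesis that insulin is known to raise, 1 rose and 0 fell (median 0.19). It was Fasn, the fatty acid synthase (3386 and 3210.2 against 5345 and 5223; 0.66, SE 0.08, limma adjusted p = 0.028). Srebf1, through which insulin acts on these genes, chosen after its values were seen, differed by 0.21 (95% interval 0.02 to 0.41, limma adjusted p = 0.14).

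**Figure D4:**
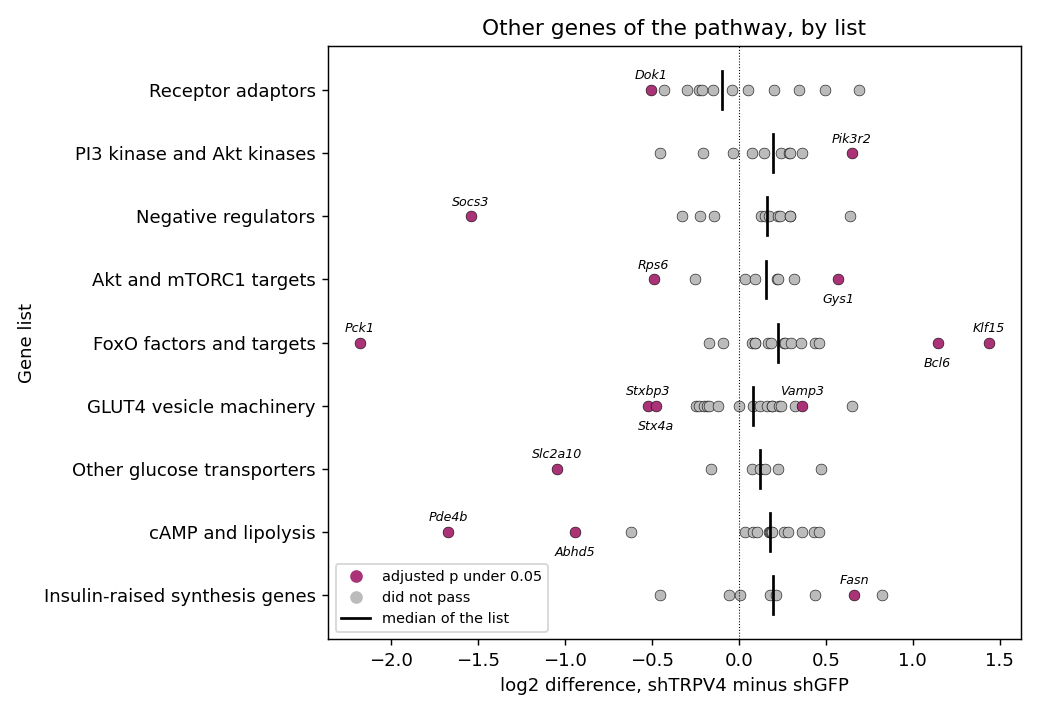
Log2 difference (shTRPV4 minus shGFP) of each measured gene in 9 lists of the pathway, 1 point a gene on its brightest probe set, purple and named where the limma adjusted p was under 0.05, with a black bar at the list's median. The genes that passed lie on both sides of 0, from Pck1 at −2.18 to Klf15 at 1.44.

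Markers of other cell types were read as well, where 5.33% and 6% of all genes rose and fell. Of 8 macrophage markers, 3 fell (Lyz2, Cd14 and, on 1 of its 3 probe sets, Csf1r) and 1 rose (Cd68), with a sum of 961 to 1055 against 616 to 671. The defining marker Ptprc read 5.43 to 11.2, below the offset, and Itgam at most 29.5. None of 6 endothelial markers passed in limma, with 2 at an unadjusted p under 0.05, and their sum was 92.0 to 93.5 against 111 to 115.5. That sum is of dim readings: each was at most 44.3, and Kdr and Vwf were below the offset on every array. Of 6 muscle markers Des rose (0.52; not without normalization, with an offset of 1 or with probe sets averaged), and their sum was 508 to 552 against 656 to 663. The part of these markers was not tested either.

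The genes most like Slc2a4 over the 4 arrays were ranked by the root mean square difference of log2 values, each centred on its own mean, from the brighter Slc2a4 probe set. Among 12393 genes the 5 closest were Reep6, Acsf2, Lyst, Sparcl1 and Paqr4, at 0.06 to 0.08, with log2 differences of 1.13, 1.11, 1.20, 1.08 and 1.04. Paqr4 did not pass (limma adjusted p = 0.058) and the others did. Reep6 read 448 and 369 on the control arrays and 886 and 879 on the arrays labelled shTRPV4, with its control replicates in the order seen on 1415958_at, which is the reverse of that on 1415959_at. With 4 arrays in 2 groups, likeness of this kind rests on the group difference and the order of the replicates.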

How the data were processed

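The authors deposited a table of linear intensity values, 1 for each probe set on each of 4 arrays. How they summarised, background-corrected and scaled them is not given in these sources, and without detection calls the level of background is unknown. Precision is limited by the number of arrays, 2 per group. Groups were taken from the sample titles.

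Intensities were taken as log2(intensity + 16) and quantile normalized, since the array medians spanned 0.14 on that scale. The fit was limma's (version 3.58.1, under R 4.3.3) with lmFit and eBayes on all 22626 probe sets (group as the only term, 2 residual and 1.80 prior degrees of freedom), with Benjamini-Hochberg adjustment and a threshold of 0.05. It was tested on simulated data in which every probe set had the same spread. That test does not bear on calls where spreads differ or readings are dim. Probe sets were named from the platform annotation: 20380 had 1 gene symbol, 691 several and 1555 none, and gene IDs of 20351 matched RefSeq (GRCm38.p6), which changed 0 symbols. Members were reported by every probe set and other genes by the brightest one. In each list, up to 4 genes past the threshold with the largest absolute difference were named. The members and lists were chosen with earlier results of these data known. The alternatives were other scalings, offsets, filters on dim probe sets, an intensity trend, averaged probe sets, a replicate block and leaving out each array. Quantile normalization sets the ranks of an array to common values, which ties the Fabp4 difference to 0.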

Additional observations from a re-analysis of the deposited data

How the results depend on the processing

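Each of the 17 probe sets kept the sign of its difference in every fit that held it, under the scalings, offsets, filters, trend and block tried and with any 1 array left out. Insr 1450225_at and Foxo1 1456529_at were left out by both filters on dim probe sets, and Insr 1421380_at and Akt2 1421324_a_at by the 50th percentile one. Calls depended more on the setting. With an offset of 1, limma called 0 of the 17 (6 at an unadjusted p under 0.05; Slc2a4 adjusted p = 0.052 and 0.088, Irs1 0.065, Foxo1 1456529_at 0.060), with 606 calls over all probe sets, 180 higher and 426 lower, and 3 of the pathway genes (Socs3, Abhd5 and Pde4b). The replicate numbers share no stated origin: deviations of equal numbers correlated at 0.12 over probe sets. With that number as a block, limma called 0 of the 17, 0 pathway genes and 0 probe sets in either direction (9 of the 17 and 6858 probe sets at an unadjusted p under 0.05). With any 1 array left out, all of these counts were also 0, with 4 to 8 of the 17 and 4543 to 5913 probe sets at an unadjusted p under 0.05. Such a fit is left with 1 residual degree of freedom and assumes that the lone array varies like the other group. Over all probe sets, rises numbered 600 as deposited and 1662 with median centring. The total was 4116 with an offset of 64 (2130 higher, 1986 lower), 4059 without probe sets under the 25th percentile (2084 and 1975), 4874 without those under the 50th (2642 and 2232) and 4150 with an intensity trend (2170 and 1980). Pathway genes called, 15 as reported, numbered 23 with median centring, 30 with an offset of 64, 27 and 46 under the filters and 37 with the trend. Foxo1 1416983_s_at also passed with an offset of 64, under both filters and with the trend, and under the 50th percentile filter Akt1 1416657_at and Foxo1 1416981_at did. The Trpv4 difference ran from −0.093 (without replicate 1 of shGFP) to 0.727 with 1 array left out, and averaging the Akt2 probe sets gave 0.034 in place of −0.11 on the brighter one. The cause of these changes was not tested. Readings near or below 16, as for Insr 1450225_at and Foxo1 1456529_at, limit what can be said of size.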
